A study of Mus musculus with 6 samples.

Results

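The constitutive proteasome subunits are the proteins that build the standard proteasome, the protease that degrades ubiquitin-tagged proteins in the cytosol and nucleus. They were taken here as the genes named Psma, Psmb, Psmc or Psmd followed only by digits, without the immunoproteasome genes Psmb8, Psmb9 and Psmb10. Genes were matched by name alone, but the set itself was chosen with earlier results of these data known. It gave 36 genes of 55453 symbols in the table, 16 of the core particle and 20 of the regulatory particle, and 34 of them had enough counts to be tested.

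Poly(A) RNA was sequenced in 6 libraries. Their source is given as SB28, which is a glioma line from C57BL/6 mice. The labels give 3 libraries as PP2AcKO, with the genotype PP2A KO, and 3 as PP2AcWT, with the genotype Wild Type. PP2Ac is the catalytic subunit of protein phosphatase 2A. The series design instead speaks of SB28 tumours, subcutaneous or intracranial, in wild-type hosts and in LysMcrePP2Acfl/fl hosts, where the Cre is driven by a myeloid promoter. The labels do not settle which cells carried the deletion, how it was made, or whether the libraries came from 1 clone or from separate cultures. Without separate cultures, a p-value here reflects the spread from library to library alone, which may be technical.

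Totals were 40245915 to 46149908 counts in PP2AcKO and 38735864 to 49344079 in PP2AcWT. Ppp2ca, a gene encoding PP2Ac, averaged 199 ± 15.6 CPM (counts scaled to a common library total) in PP2AcKO and 255 ± 16.5 CPM in PP2AcWT (SD, n = 3 each), a log2 fold change of -0.36. Annotation on the other strand overlaps 41.3% of the exon bases of Ppp2ca, and the strand setting of the counting is not given. Of 10 markers looked for in a glioma line 8 were tested, and they went both ways at an adjusted p under 0.05. Pdgfb, Nras and Pdgfra (3) were higher in PP2AcKO, Vim, Nes, Sox2 and S100b (4) were lower, and Cd44 did not pass. The 10 summed to 3926 to 4027 CPM in PP2AcKO and 6787 to 6909 CPM in PP2AcWT, where Vim alone averaged 1882 CPM in PP2AcKO and 4791 CPM in PP2AcWT, and the part of this difference in the subunit results was not tested. Olig2 had no count, and Gfap averaged 0.0809 CPM in PP2AcKO and 0.0393 CPM in PP2AcWT. Of 6 lymphoid markers 5 had no count in any library. The 8 myeloid markers summed to 4.80 to 5.37 CPM in PP2AcKO and 3.25 to 3.60 CPM in PP2AcWT, mostly from Cd68. Members of that list went different ways at very low counts: Lyz2, the gene whose promoter drives LysM-Cre, had 44 counts over the PP2AcKO libraries and 1 over the PP2AcWT libraries, while Ptprc had 11 counts in PP2AcKO and 31 in PP2AcWT. The 4 endothelial markers summed to 419 to 456 CPM in PP2AcKO and 399 to 430.5 CPM in PP2AcWT, nearly all from Cdh5. Kdr averaged 7.78 CPM in PP2AcKO and 1.65 CPM in PP2AcWT (log2 fold change 2.23), Tek 0.295 CPM in PP2AcKO and 1.40 CPM in PP2AcWT (-2.23), and Pecam1 0.344 CPM in PP2AcKO and 0.282 CPM in PP2AcWT. The 4 neuronal markers summed to at most 1.28 CPM in PP2AcKO and 2.04 CPM in PP2AcWT, and they too went different ways at low counts. Over the PP2AcKO and the PP2AcWT libraries, Snap25 had 18 and 178 counts, Gad1 56 and 1, and Syt1 44 and 61. Rbfox3 had no count. In bulk RNA, fewer cells of a type and less RNA per cell cannot be told apart.

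The core particle is a barrel of stacked rings. Alpha subunits form the outer rings and gate the entry pore, and beta subunits form the inner rings, where Psmb5, Psmb6 and Psmb7 carry the proteolytic sites. The regulatory particle caps the barrel: ATPases encoded by the Psmc genes unfold the substrate, and Psmd subunits bind ubiquitin chains, remove them or hold the lid together. In mammalian cells, transcription of subunit genes can be raised together by the factor Nfe2l1 through antioxidant response elements in their promoters.

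Because of that shared control, the promoters of the members were read for the core of this element, TGACNNNGC, on both strands. The windows run from 250 bases before to 50 bases after each RefSeq gene start (GRCm38.p6), and 28 of the 34 tested members had one. Psmb1, Psmb2, Psmb7, Psmc3, Psmd3 and Psmd7 were not matched. The 5 members with a match have the matched letters in capitals here, 5′ to 3′ on the strand of the gene, and a match on the opposite strand appears as its reverse complement.
Psmb5: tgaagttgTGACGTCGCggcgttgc
Psmb6: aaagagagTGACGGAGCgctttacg
Psmc6: agccagtaGCTAAGTCAggcattgc
Psmd9: ctagccggTGACCCCGCccacttcc
Psmd12: tctGCTGTGTCAcatttgcc
The printed stretches lie at chr14:54618026-54618050 (minus strand) for Psmb5, chr11:70525340-70525364 (plus) for Psmb6, chr14:45329589-45329613 (plus) for Psmc6, chr5:123228151-123228175 (plus) for Psmd9 and chr11:107479278-107479297 (plus) for Psmd12. The matches begin 47, 9, 227, 31 and 247 bases before the start, in the same order of genes. Of the genes with a window, 17.9% of tested members held the element core, against 17.0% of the 10678 tested genes with a window and 14.0% of all 27025 genes of the RefSeq table. CCAAT was in 39.3% of the members and 43.2% of the tested genes. CACGTG was in 7.14% of the members and 11.7% of the tested genes. No match of the element core overlapped either of the other motifs. The share of members with each motif was close to or below that of the tested genes, and the 5 members with the element core had log2 fold changes of -0.28 (Psmb5), -0.06 (Psmb6), 0.41 (Psmc6), 0.02 (Psmd9) and -0.04 (Psmd12).

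Psmd8, the member with the largest change, is shown with its whole window (chr7:29180624-29180923, minus strand), which held none of the 3 motifs in these letters.
Psmd8: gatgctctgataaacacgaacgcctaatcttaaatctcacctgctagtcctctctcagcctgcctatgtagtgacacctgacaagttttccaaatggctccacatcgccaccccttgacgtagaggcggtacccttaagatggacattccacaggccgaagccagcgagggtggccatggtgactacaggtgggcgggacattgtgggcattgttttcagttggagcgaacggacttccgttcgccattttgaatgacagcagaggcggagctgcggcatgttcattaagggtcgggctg

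Fold changes compare PP2AcKO with PP2AcWT, and a gene is said to have risen or fallen where its adjusted p was under 0.05 (edgeR's quasi-likelihood test, Benjamini-Hochberg over all genes tested). Every core particle message that passed was lower in PP2AcKO, and regulatory particle messages moved both ways. Of the 14 tested core members 8 fell, 0 rose and 6 did not pass, with a median log2 fold change of -0.28. Of the 20 regulatory members 6 rose, 5 fell and 9 did not pass, with a median of 0.022. Over all 14877 genes tested, 64% passed, 31.9% higher and 32.1% lower, with a median of -0.01. The share of core members lower, 57.1%, stood above that background, but without PP2AcKO 3 the 8 lower core members were 5, where 28.4% of all genes were lower. The shares of regulatory members higher (30%) and lower (25%) were near or below it. The difference between the 2 particles was not tested, since the members were chosen with results of these data known.

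The changes were small. Against a fold change of 1.5, 1 of 34 members passed, Psmd8, where 26.7% of all genes did. The interquartile range of the log2 fold change was 0.345 over the members, against 0.946 over all genes. The 2 groups of libraries did not overlap for 22 of the 34 members, 6 higher and 16 lower in PP2AcKO, against 68.3% of all genes. In a fit that blocks on replicate number, which was not shown to pair the libraries, the core had 11 members lower and 1 higher. The regulatory particle had 8 lower and 7 higher. That fit called more of all genes too, 77.3% in all, with 38.8% lower and 38.5% higher.

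**Figure D1:**
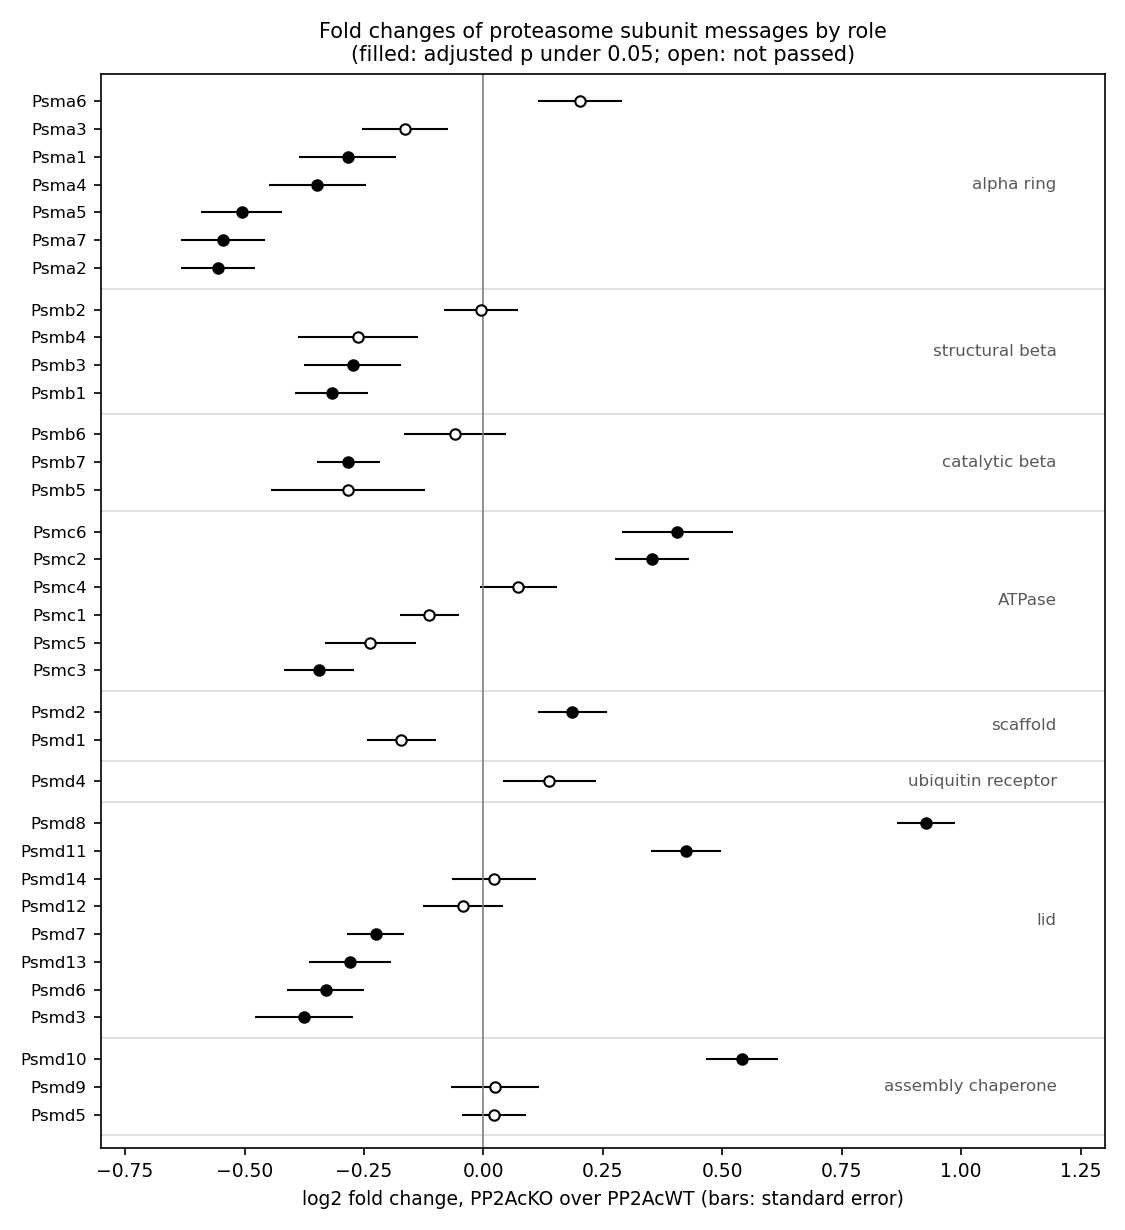
Log2 fold change of the 34 tested subunit messages, PP2AcKO over PP2AcWT, with bars for the standard error, grouped by role. Filled points passed at an adjusted p under 0.05. All 7 beta subunits lie at or left of 0, 6 of the 7 alpha subunits lie left of it, and Psmd8 stands farthest right at 0.93.

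Of the 3 catalytic subunits of the core, 1 fell. Psmb7, which carries the trypsin-like site (ENSMUSG00000026750.6, chromosome 2, 38588036 to 38644087, minus strand, GRCm38), had 121, 133 and 129.7 CPM in PP2AcKO 1, 2 and 3, against 160.1, 150.2 and 157 CPM in PP2AcWT 1, 2 and 3. Every PP2AcKO library lay below every PP2AcWT library, and the log2 fold change was -0.28 (SE 0.07, adjusted p = 0.00498). Nek6, on the other strand, overlaps 11.8% of its exon bases, and the strand setting of the counting is not given. Psmb5, with the chymotrypsin-like site (ENSMUSG00000022193.7, chromosome 14, 54614119 to 54618022, minus strand), had 26.3, 42.0 and 39.8 CPM in PP2AcKO, against 40.0, 43.8 and 47.9 CPM in PP2AcWT. PP2AcKO 1 was the low library and the groups overlapped. Its log2 fold change of -0.28 was as large as that of Psmb7, with a larger error (SE 0.16, adjusted p = 0.153). Mir686, on the same strand, overlaps 12.1% of the exon bases of Psmb5. With the replicate block the adjusted p of Psmb5 was 0.00153, and without both libraries numbered 1 its log2 fold change was -0.16 (adjusted p = 0.0104). Psmb6, with the caspase-like site, had 86.0, 111 and 109.6 CPM in PP2AcKO, against 102, 102 and 116 CPM in PP2AcWT. The groups overlapped (log2 fold change -0.06, SE 0.11, adjusted p = 0.644).

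Immunoproteasome partners replace these catalytic subunits in interferon-treated and immune cells. Psmb8, the partner of Psmb5, stood at 107, 98.1 and 100.4 counts per 100 counts of Psmb5 in PP2AcKO, against 5.29, 5.90 and 4.10 in PP2AcWT, uncorrected for length, and Psmb8 itself had a log2 fold change of 4.03 (adjusted p = 2.15e-07). Psmb9 stood at 3.44, 3.89 and 3.75 counts per 100 counts of Psmb6 in PP2AcKO and 0.442, 0.178 and 0.261 in PP2AcWT, while Psmb10 did not pass (log2 fold change -0.31, adjusted p = 0.0748; 0.000698 with the replicate block). On the other strand, Gm20496 overlaps 14.7% of the exon bases of Psmb8, and Tap1 overlaps 5.8% of those of Psmb9.

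The 4 structural beta subunits have no active site. Psmb1 fell (log2 fold change -0.32, SE 0.08, adjusted p = 0.00558) and so did Psmb3 (-0.27, SE 0.10, adjusted p = 0.0412). The call of Psmb3 was close to the threshold, although its groups did not overlap, and was lost when most single libraries were left out. Its adjusted p was 0.0860, 0.0792, 0.0542, 0.0688 and 0.132 without PP2AcKO 1, PP2AcKO 3, PP2AcWT 1, PP2AcWT 2 and PP2AcWT 3. Psmb4 did not pass (-0.26, adjusted p = 0.0940), although its groups did not overlap, and with the replicate block its adjusted p was 0.000244. Psmb2 had 76.9, 74.4 and 70.4 CPM in PP2AcKO, against 76.7, 67.8 and 78.1 CPM in PP2AcWT. Its groups overlapped widely (log2 fold change -0.01, SE 0.08, adjusted p = 0.954).

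The alpha ring held the largest decreases, with 5 of 7 members lower. Psma2 (ENSMUSG00000015671.11, chromosome 13, 14613240 to 14674236, plus strand) had 66.3, 69.2 and 61.6 CPM in PP2AcKO, against 102, 89.6 and 97.9 CPM in PP2AcWT. All 3 PP2AcKO libraries lay well below the lowest PP2AcWT library, and the log2 fold change was -0.56 (SE 0.08, adjusted p = 0.000238). Psma7 had 93.4, 105 and 108 CPM in PP2AcKO, against 154, 135 and 159 CPM in PP2AcWT, again without overlap (log2 fold change -0.55, SE 0.09, adjusted p = 0.000549). Psma5 had 63.5, 70.3 and 71.5 CPM in PP2AcKO, against 104, 87.9 and 99.6 CPM in PP2AcWT. Its groups did not overlap either (log2 fold change -0.51, SE 0.08, adjusted p = 0.000733). These 3 outer-ring messages were 1.47, 1.46 and 1.42-fold lower, in the order given.

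Psma4 fell as well (log2 fold change -0.35, SE 0.10, adjusted p = 0.0143), with adjusted p = 0.0509 without PP2AcKO 2 and 0.0573 without PP2AcKO 3. Psma1 fell by 0.28 (SE 0.10, adjusted p = 0.0351), and its groups overlapped. The adjusted p of Psma1 was 0.127, 0.124, 0.108 and 0.0634 without PP2AcKO 2, PP2AcKO 3, PP2AcWT 1 and PP2AcWT 3. Psma3 did not pass (log2 fold change -0.16, adjusted p = 0.142), with adjusted p = 0.00249 under the replicate block. Psma6 was the 1 core member with a positive fold change. It had 124, 115 and 121 CPM in PP2AcKO, against 117, 94.0 and 102 CPM in PP2AcWT, where PP2AcWT 1 overlapped the PP2AcKO range. Its log2 fold change of 0.20 (SE 0.09, adjusted p = 0.0712) had adjusted p = 0.000379 with the replicate block and 0.00845 without PP2AcWT 1.

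Both tissue-restricted core subunits failed the filter. Psma8, the testis alpha subunit, had 0 counts in all 6 libraries, which allows at most 0.0587 to 0.0766 CPM per library (3 counts, counting error only). Psmb11, the beta subunit of the thymic cortex, had 2, 0 and 4 counts in PP2AcKO and 5, 5 and 3 in PP2AcWT.

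**Figure D2:**
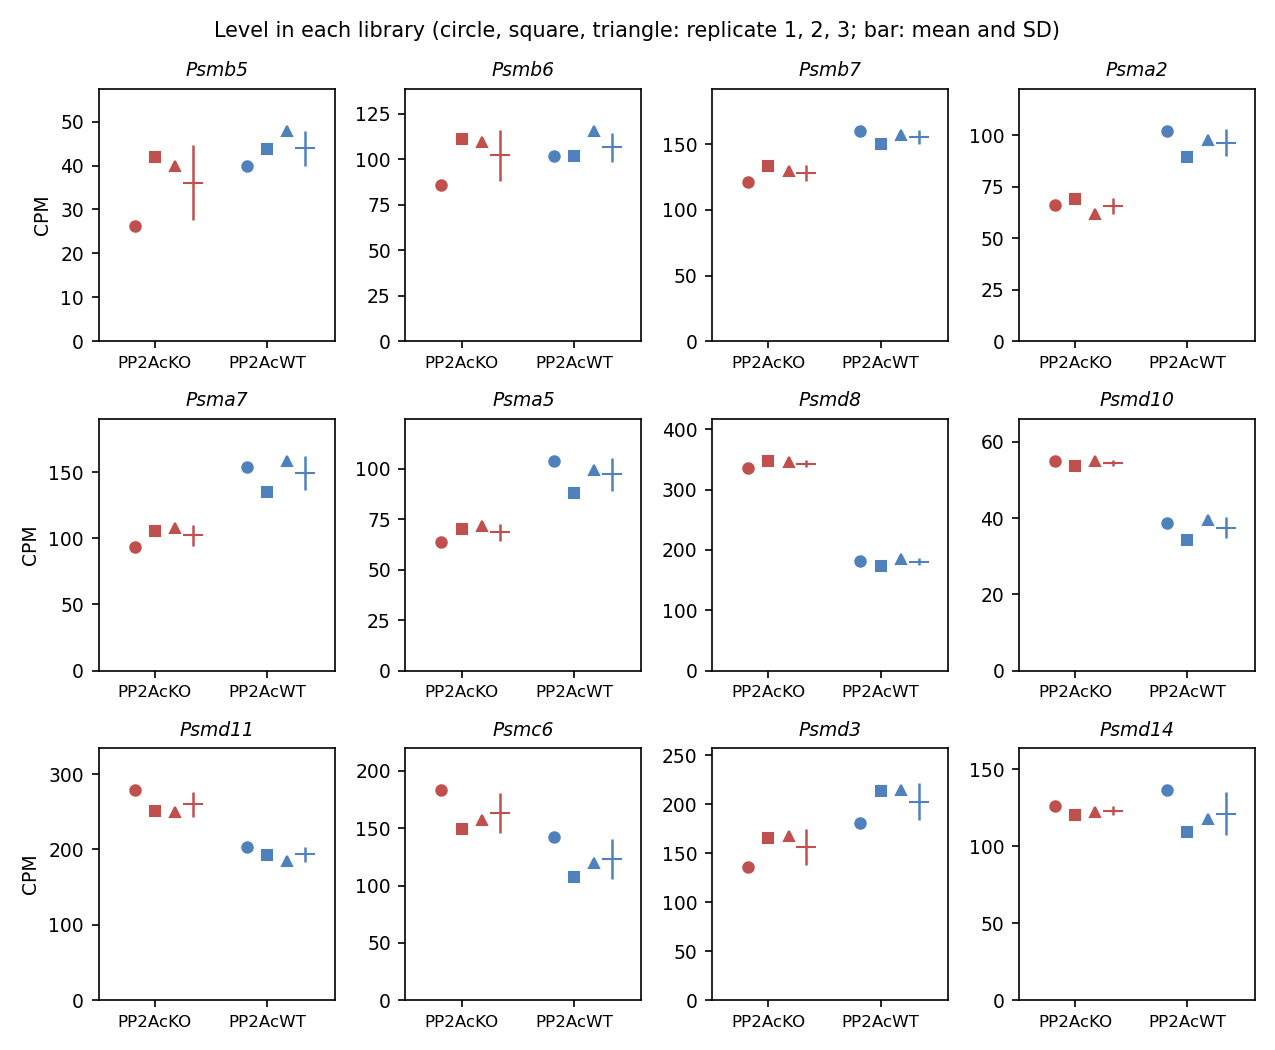
Level in CPM of 12 subunit messages in each library, PP2AcKO left and PP2AcWT right, with the mean and SD beside each group and axes from 0. Psmd8, Psmd10 and Psmd11 are higher in every PP2AcKO library, Psma2, Psma5 and Psma7 are lower in each, and the groups of Psmb5 overlap, with PP2AcKO 1 low at 26.3 CPM while PP2AcKO 2 and 3 reach 42.0 and 39.8 CPM.

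In the ATPase ring of the regulatory particle 2 of 6 members rose and 1 fell. Psmc6 had 183, 149 and 157.6 CPM in PP2AcKO, against 143, 108 and 119 CPM in PP2AcWT. The libraries numbered 1 were the highest of both groups, the groups did not overlap, and the log2 fold change was 0.41 (SE 0.12, adjusted p = 0.0132; 0.0537 without PP2AcWT 2). Psmc2 rose by 0.35 (SE 0.08, adjusted p = 0.00336). Psmc3 moved the other way, with 131, 149 and 149 CPM in PP2AcKO, against 176, 182 and 187 CPM in PP2AcWT. It did not overlap and its log2 fold change was -0.34 (SE 0.07, adjusted p = 0.00283); Slc39a13, on the other strand, overlaps 8.2% of its exon bases. Psmc1, Psmc4 and Psmc5 did not pass, with log2 fold changes of -0.11, 0.07 and -0.24. With the replicate block Psmc1 and Psmc5 had adjusted p = 0.00937 and 0.000472. Subunits that sit side by side in 1 hexameric ring thus had messages that differed in direction.

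The lid, which surrounds the deubiquitinase Psmd14, held the member that changed most. Psmd8, the lid subunit called Rpn12 in yeast (ENSMUSG00000030591.17, chromosome 7, 29174188 to 29180701, minus strand), had 336, 348 and 345 CPM in PP2AcKO, against 182, 174 and 186 CPM in PP2AcWT. The spread within each group was small beside the gap between them, and the message was 1.90-fold higher (log2 fold change 0.93, SE 0.06, adjusted p = 2.12e-06). No annotated exon of another gene overlaps its exons. Psmd8 made up 26.3%, 27.2% and 26.9% of the summed CPM of the 8 lid members in PP2AcKO, against 15.3%, 15.5% and 16.0% in PP2AcWT. Over its 14 alternatives the log2 fold change ran from 0.84 to 0.95, and it passed in each, including the test against a fold change of 1.5 (adjusted p = 0.000243).

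Psmd11, the lid subunit that contacts both the ATPases and the core (ENSMUSG00000017428.16, chromosome 11, 80428615 to 80473248, plus strand), had 279, 251 and 249.7 CPM in PP2AcKO, against 204, 193 and 184 CPM in PP2AcWT. The groups did not overlap and the log2 fold change was 0.42 (SE 0.07, adjusted p = 0.000817). The other lid members that passed fell. Psmd3 had 136, 166 and 168 CPM in PP2AcKO, against 181, 213 and 215 CPM in PP2AcWT, and the libraries numbered 1 were the lowest in both groups (log2 fold change -0.38, SE 0.10, adjusted p = 0.0109). Psmd6 had 77.6, 73.6 and 74.7 CPM in PP2AcKO, against 104, 86.0 and 94.1 CPM in PP2AcWT, without overlap (log2 fold change -0.33, SE 0.08, adjusted p = 0.00609). Psmd13 had 55.3, 63.3 and 68.5 CPM in PP2AcKO, against 74.5, 74.5 and 78.1 CPM in PP2AcWT. It did not overlap (log2 fold change -0.28, SE 0.09, adjusted p = 0.0190), but lost the call without PP2AcWT 3 (0.0687), and Sirt3, on the other strand, overlaps 10.1% of its exon bases. Psmd7, the partner of Psmd14 in the deubiquitinating pair, fell by 0.23 (SE 0.06, adjusted p = 0.00918; 0.0527 without PP2AcKO 2).

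Psmd14 itself (ENSMUSG00000026914.15, chromosome 2, 61711694 to 61800376, plus strand) had 126, 120.5 and 122 CPM in PP2AcKO, against 136, 109 and 118 CPM in PP2AcWT. The PP2AcKO libraries lay inside the PP2AcWT range (log2 fold change 0.02, SE 0.09, adjusted p = 0.839), and without both libraries numbered 1 it was 0.10 (adjusted p = 0.0230). Psmd12 did not pass either (-0.04, adjusted p = 0.677).

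Psmd1 and Psmd2 are the large scaffold proteins that hold ubiquitin receptors. Psmd2, the most abundant subunit message per exon length, averaged 792 ± 55.6 CPM in PP2AcKO and 697 ± 26.5 CPM in PP2AcWT (SD, n = 3 each). Its groups did not overlap and its log2 fold change was 0.19 (SE 0.07, adjusted p = 0.0488). This call was lost without any 1 of PP2AcKO 2, PP2AcKO 3, PP2AcWT 1, PP2AcWT 2 and PP2AcWT 3 (adjusted p between 0.0782 and 0.147), and also with upper-quartile factors (0.174) or library totals alone (0.246). Psmd1 did not pass (-0.17, adjusted p = 0.0665; 0.000351 with the replicate block and 0.0126 without PP2AcKO 1). Psmd4, a ubiquitin receptor, did not pass (0.14, adjusted p = 0.240; 0.0141 with the replicate block and 0.00563 without PP2AcKO 1).

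The assembly chaperones among the members are not part of the finished proteasome. Psmd10, known as gankyrin, which escorts an ATPase subunit during assembly (ENSMUSG00000031429.14, chromosome X, 140948429 to 140956728, minus strand), had 54.9, 53.7 and 55.1 CPM in PP2AcKO, against 38.6, 34.3 and 39.6 CPM in PP2AcWT. Its PP2AcKO libraries lay close together and above all PP2AcWT libraries, 1.46-fold higher (log2 fold change 0.54, SE 0.08, adjusted p = 0.000241). Psmd5 and Psmd9 both had log2 fold changes of 0.02 and did not pass (adjusted p = 0.784 and 0.829). Gm26745, on the other strand, overlaps 25.5% of the exon bases of Psmd9.

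Summed over the members, messages of the core averaged 1264 ± 45.7 CPM in PP2AcKO and 1510 ± 92.2 CPM in PP2AcWT (SD, n = 3 each). The PP2AcKO sums were 1212, 1298 and 1281 CPM, all below the PP2AcWT sums of 1577, 1405 and 1549 CPM. The regulatory sums were 3449, 3574 and 3573 CPM in PP2AcKO, against 3324, 3230 and 3309 CPM in PP2AcWT. The regulatory sum per unit of core sum was 2.85, 2.75 and 2.79 in PP2AcKO, against 2.11, 2.30 and 2.14 in PP2AcWT, so the 2 groups did not overlap in it.

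Most of the gap in the regulatory sum came from Psmd8 and Psmd2, which were singled out after their values were seen. Without Psmd8 the regulatory sum averaged 3189 ± 65.8 CPM in PP2AcKO and 3107 ± 45.2 CPM in PP2AcWT. Without Psmd8 and Psmd2 it averaged 2396 ± 12.4 CPM in PP2AcKO and 2411 ± 66.7 CPM in PP2AcWT, with overlapping groups. All 36 members together summed to 4795 ± 117 CPM in PP2AcKO and 4798 ± 143 CPM in PP2AcWT.

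**Figure D3:**
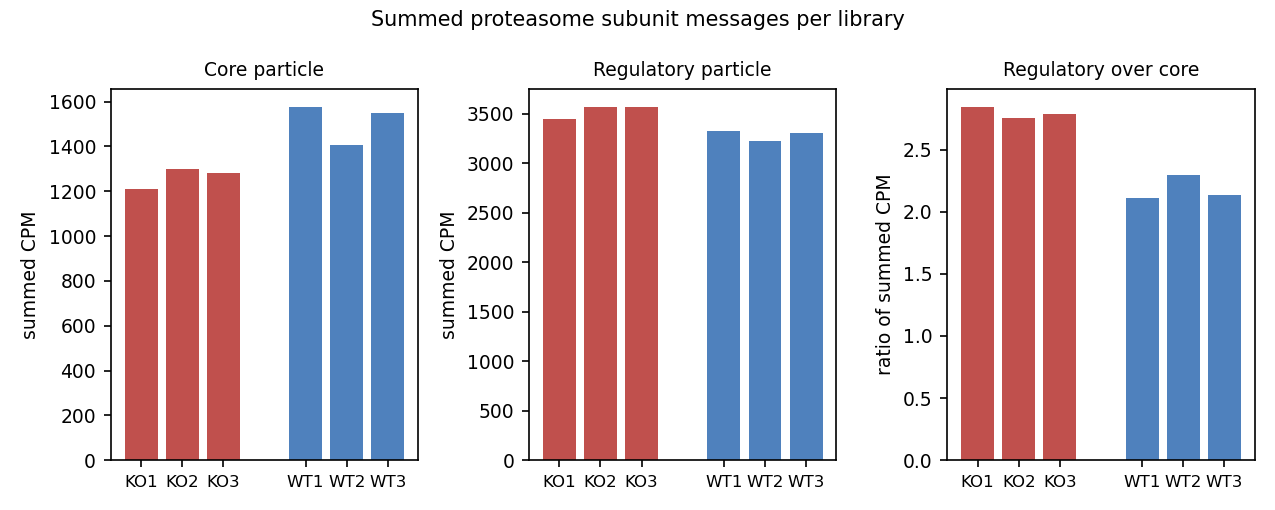
Summed CPM of the 16 core and the 20 regulatory members, and their ratio, in each library (bars from 0, PP2AcKO left, PP2AcWT right). Core sums are 1212 to 1298 CPM in PP2AcKO and 1405 to 1577 CPM in PP2AcWT, and the ratio is at least 2.75 in PP2AcKO and at most 2.30 in PP2AcWT.

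Levels of different genes were compared per length of exon, as RPKM (CPM per kilobase, over the merged exons of all annotated transcripts). Within the core they ran from 17.9 RPKM for Psma2 to 97.2 RPKM for Psma6 in PP2AcKO, and from 26.3 RPKM for Psma2 to 84.5 RPKM for Psma6 in PP2AcWT. The highest core level was thus 5.43 times the lowest in PP2AcKO and 3.21 times in PP2AcWT. These ratios depend on the merged exon lengths, 1234 bases for Psma6 and 3673 for Psma2. In CPM, Psma6 and Psma2 averaged 120 and 65.7 in PP2AcKO, and 104 and 96.6 in PP2AcWT. The ratios thus cannot be set against the particle, which holds each of these subunits in equal number. In the lid the corresponding ratios were 6.08 in PP2AcKO, where Psmd8 was highest at 112 RPKM, and 3.08 in PP2AcWT, where Psmd7 was highest at 69.1 RPKM. In the ATPase ring the ratio was 2.45 in PP2AcKO and 3.38 in PP2AcWT, with Psmc2 lowest and Psmc1 highest in both. Psmd2 had 196 ± 13.8 RPKM in PP2AcKO and 173 ± 6.56 RPKM in PP2AcWT. Psmd9 was lowest of all, at 5.13 RPKM in PP2AcKO and 5.04 RPKM in PP2AcWT, over a merged exon length of 7248 bases.

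**Figure D4:**
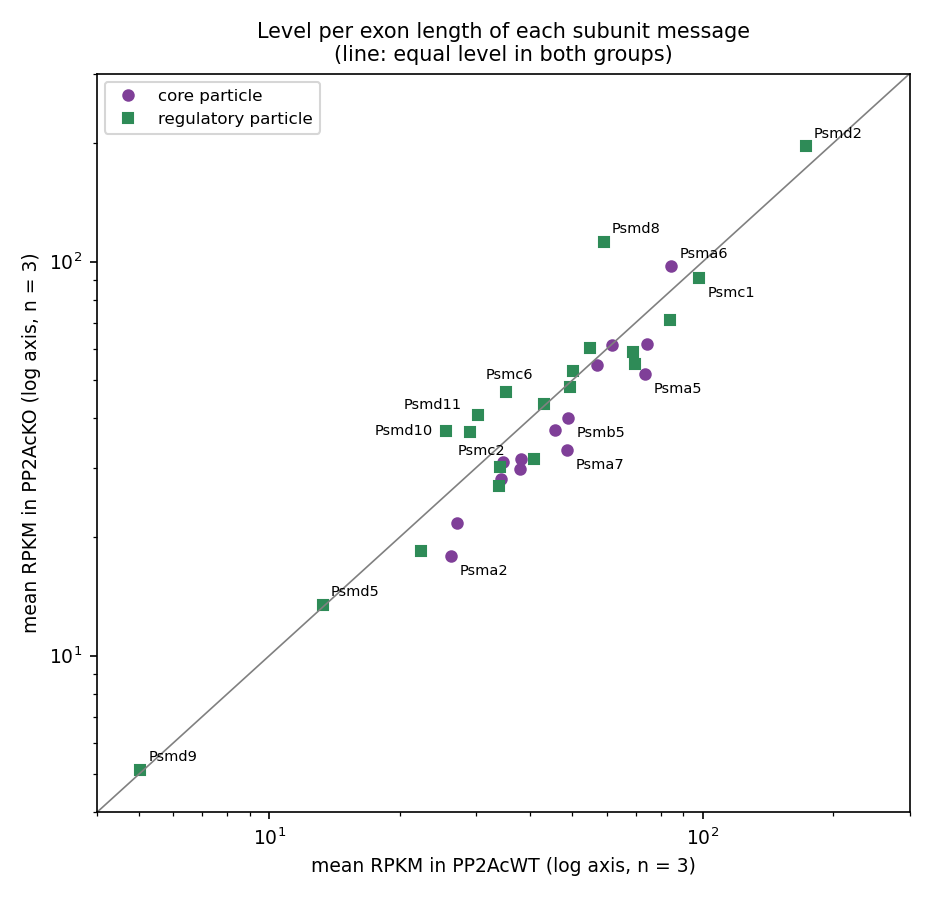
Mean RPKM of the 34 tested members, PP2AcKO on the vertical and PP2AcWT on the horizontal log axis, with a line of equal level. Psmd8 lies farthest above the line at 112 RPKM in PP2AcKO against 59.0 RPKM in PP2AcWT, and most core subunits lie below it.

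The libraries numbered 1 stood apart from the others of their groups. PP2AcKO 1 was the highest or lowest of its group for 29 of the 34 members and PP2AcWT 1 for 28, and the 2 deviated in the same direction for 30. These are 85.3%, 82.4% and 88.2% of the members, against 85.6%, 82.4% and 77.2% of all genes tested. On the log2 scale PP2AcKO 1 differed from the mean of the other PP2AcKO libraries by -0.64 (Psmb5) to 0.26 (Psmc6), and PP2AcWT 1 from the other PP2AcWT libraries by -0.24 (Psmd3) to 0.33 (Psmc6). Without both, 11 core members were lower and 1 higher, and 7 regulatory members were lower and 9 higher, with medians of -0.20 and 0.05, where 74.6% of all genes were called, 37.1% lower and 37.5% higher. What set these libraries apart was not tested.

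Other genes of the pathway were listed by role, and their counts stand against the 64% of all genes that passed. Of the 12 genes of the Nfe2l1 axis, which holds the factor, its partners, the proteins that process it and the repressor Bach1, 8 rose and 2 fell (83.3% called), with a median log2 fold change of 0.53. Nfe2l1, the factor that restores subunit transcription when proteasomes are inhibited, averaged 539.6 ± 46.1 CPM in PP2AcKO and 381 ± 24.7 CPM in PP2AcWT (log2 fold change 0.50, SE 0.08, adjusted p = 0.000693). Ddi2, the protease that activates it, averaged 67.0 ± 3.66 CPM in PP2AcKO and 39.2 ± 3.13 CPM in PP2AcWT (0.78, adjusted p = 4.07e-05). Its dimer partner Mafk had a log2 fold change of 1.33 (adjusted p = 1.34e-05), and Nfe2l2, a related factor, 0.89 (adjusted p = 4.22e-05). Vcp, the segregase that extracts proteins from membranes and delivers them to the proteasome, fell to 574 ± 27.5 CPM in PP2AcKO, against 897 ± 5.15 CPM in PP2AcWT (-0.64, adjusted p = 2.53e-05).

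Of 7 shuttle receptors, which carry ubiquitinated proteins to the proteasome, 4 rose and 1 fell (71.4% called, near the share of all genes). Ddi2 is among those that rose here and is counted in the Nfe2l1 axis too. Sqstm1, the receptor p62, averaged 3040 ± 249.7 CPM in PP2AcKO and 694 ± 37.0 CPM in PP2AcWT (log2 fold change 2.13, adjusted p = 1.03e-07), and Ubqln1 rose by 0.81 (adjusted p = 4.72e-06). Mrnip, on the other strand, overlaps 17.3% of the exon bases of Sqstm1. Of the ubiquitin and E1 genes 3 of 6 rose and 2 fell (83.3% called). Ubb, a polyubiquitin gene, rose by 0.78 (adjusted p = 0.000181), while Rps27a, a ubiquitin-ribosomal fusion gene, fell by 0.50 (adjusted p = 0.00379).

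Among 9 tested assembly chaperones, Psmd5, Psmd9 and Psmd10 included, 2 rose and 3 fell (55.6% called). Pomp, which matures the core, averaged 50.4 ± 1.16 CPM in PP2AcKO and 71.5 ± 5.98 CPM in PP2AcWT (log2 fold change -0.50, adjusted p = 0.000448). The core chaperone Psmg2 also fell (-0.47, adjusted p = 0.00188), whereas Akirin2, which brings proteasomes into the nucleus, rose (0.45, adjusted p = 0.000282). Of 7 activators and inhibitors 4 rose and 1 fell (71.4% called). Psme4, an activator cap of the core, averaged 229.6 ± 34.1 CPM in PP2AcKO and 362 ± 37.2 CPM in PP2AcWT (-0.65, adjusted p = 0.000962). The nuclear activator Psme3 rose by 0.38 (adjusted p = 0.000688) and the inhibitor Psmf1 by 0.41 (adjusted p = 0.000738). Of 7 other proteins bound to the regulatory particle 1 rose and 3 fell (57.1% called). The small subunit Sem1 and the deubiquitinase Uchl5 both fell by 0.48 (adjusted p = 0.00242 and 0.00818), while Zfand5 rose by 0.51 (adjusted p = 0.000377).

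**Figure D5:**
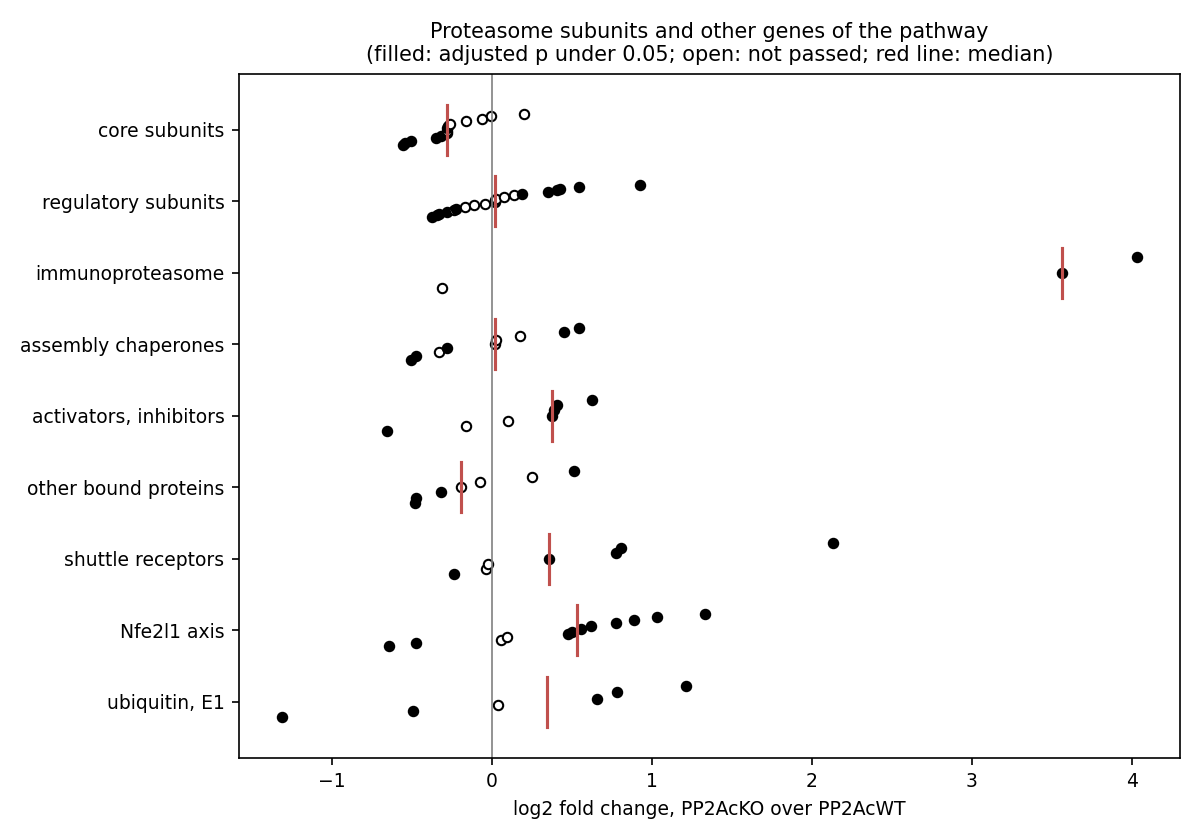
Log2 fold change, PP2AcKO over PP2AcWT, of core and regulatory subunits and of 7 lists of related genes (filled: adjusted p under 0.05, red line: median of the tested genes). Core subunits centre on -0.28 and regulatory subunits on 0.022, the genes of the Nfe2l1 axis on 0.53, and Psmb8 lies at 4.03.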

How the data were processed

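The authors deposited 1 table of raw read counts per gene symbol, with 1 column per library, matched to samples by title; 0 columns of other samples were present. Per the submitters' processing notes, which give no roles, the authors used limma 3.48.3, edgeR 3.34.0, HTSeq 0.11.2, STAR 2.7.1a and fastp 0.20.0, with builds GRCm38 and mm10. No source used here gives the strand setting or annotation release. Reads that match a pseudogene copy of a subunit could have been split or dropped.

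Of 55453 symbols, 27491 had a count, and filterByExpr of edgeR 4.0.16 kept 14877. Libraries were scaled by TMM and compared with glmQLFit and glmQLFTest (R 4.3.3), with Benjamini-Hochberg adjustment over all tested genes and calls at 0.05. CPM uses TMM-scaled totals. Each SE is the absolute log2 fold change over the square root of F. The fit was tested on simulated counts. Positions, exon lengths and overlaps came from GENCODE M21 (GRCm38), with 54402 symbols matching 1 gene. Of the 34 tested members, 25 had no exon overlap with another gene.

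Members and gene lists were chosen with earlier results of these data known. Described per library are Psmb5, Psmb6, Psmb7, Psmd14, the 3 highest and 3 lowest fold changes of the core, and the 4 highest and 4 lowest of the regulatory particle. Of each pathway list, at most 4 were named, by smallest adjusted p, besides Nfe2l1, Psmb8, Psmb9 and Psmb10. The values of 1 gene are not reported here. No pair of libraries within a group agreed within sampling noise (chi-square per degree of freedom at least 3.41), so all 6 were kept. Deviations from the group means correlated between same-numbered libraries at 0.727, 0.426 and 0.41 over genes. The libraries numbered 1 stood apart in both groups, so the others deviate against them and can correlate whatever their numbers. Differently numbered libraries were not compared, so these correlations cannot show that the numbers pair the samples. A fit with the replicate number as a block was run as an alternative. Other alternatives were DESeq2 1.42.0, other scaling, no filter, a test against a fold change of 1.5, and leaving libraries out.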

Additional observations from a re-analysis of the deposited data

How the results depend on the processing

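Psmd8 passed under all 14 alternatives. Over the 34 members and those alternatives, 405 of 476 values kept their direction and side of the threshold, 39 lost the call, 32 gained it and 0 called values changed sign. For 49 other pathway genes the counts were 628 of 686, with 29 lost, 29 gained and 0 reversed. The core median stayed negative in every alternative. The regulatory median of 0.022 was -0.043 with upper-quartile factors and -0.063 with library totals alone, where the median of all genes was -0.07 and -0.09, and -0.0210 without PP2AcWT 2. The regulatory sum (log2 ratio 0.10) was 0.039 and 0.019 under those scalings and 0.13 without both libraries numbered 1.

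With upper-quartile factors or library totals alone, 8 regulatory members were lower in place of 5. Of all genes, 35.6% and 36.9% were lower under those scalings, against 32.1% in the main fit. In the pathway lists those scalings had 1 immunoproteasome gene lower in place of 0 and 2 activators and inhibitors lower in place of 1. Without a filter, 2 constitutive catalytic genes and 1 immunoproteasome gene were lower and 2 other bound genes higher (in place of 1, 0 and 1). With the replicate block, 1 core member was higher and 8 regulatory members lower, 2 constitutive catalytic and 1 immunoproteasome gene were lower, 2 activators and inhibitors lower, and 2 other bound genes higher. Without both libraries numbered 1, 1 core member was higher, 2 constitutive catalytic and 1 immunoproteasome gene lower, and 2 other bound genes higher and 5 lower. Of all genes, 19% were lower and 19.1% higher without a filter. With the replicate block 38.8% were lower and 38.5% higher, and without both libraries numbered 1 these were 37.1% and 37.5%. The cause of these changes in count was not tested.

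Against a fold change of 1.5, 0 core members were lower, and 1 regulatory member was higher and 0 lower. Of all genes, 13.5% were higher and 13.2% lower in that test. That test asks for a larger effect, and it left 0 calls among constitutive catalytic genes, assembly chaperones (0 higher, 0 lower), activators and inhibitors (0 and 0), and other bound genes (0 and 0). It left 0 shuttle receptors lower, 4 genes of the Nfe2l1 axis higher and 0 lower, and 1 ubiquitin gene lower.

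Leaving out 1 library at a time, the core count of lower members ran from 5 to 7 (main 8, with 5 without PP2AcKO 3) and of higher members from 0 to 1. The regulatory counts ran from 4 to 6 lower and 4 to 7 higher, with the median from -0.0210 to 0.040 and the core median from -0.31 to -0.22. Of all genes, 27.6% to 31.3% were lower and 28% to 32.5% higher in these fits. Shuttle receptors lower ran from 0 to 1, immunoproteasome genes lower from 0 to 1, and other bound genes higher from 1 to 2. The shuttle receptor that fell, Ubqln4, named here after its values were seen, lost its call without PP2AcKO 1 (adjusted p = 0.0568), PP2AcWT 2 (0.0918) or PP2AcWT 3 (0.0926).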
